A study of Homo sapiens with 5 samples.

Results

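The H3K27ac peaks near 10 genes that the transcription factor p53 switches on, CDKN1A, MDM2, BBC3, BAX, FAS, GDF15, SESN1, RRM2B, TP53I3 and ZMAT3, were examined before and after interferon-beta (IFN-β). A peak belonged to a gene when its center lay within 10 kb of any GENCODE release 44 transcription start site of that gene on GRCh38. By this rule 27 of the 20087 peaks in the table belonged to the 10 genes, and each gene had at least 1 peak. The rule used distance alone and no measured signal. Of the 27 peaks, 23 had the p53 target as their nearest protein-coding gene and 4 lay nearer to another gene.

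p53 is a transcription factor that is stabilized when DNA is damaged and that halts the cell cycle, supports repair or triggers apoptosis through the genes it activates. It binds DNA as a tetramer at a pair of similar decamers, each with a core of C, then 2 bases that are A or T, then G. MDM2, itself a target, marks p53 for degradation and so closes a feedback loop. H3K27ac, acetylation of histone H3 at lysine 27, marks active promoters and enhancers. Interferon signals through the STAT and IRF factors, which bind the interferon-stimulated response element (ISRE).

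The cells were HCT116, a human colorectal carcinoma line. This derivative expresses the auxin receptor osTIR1 from a CMV promoter and carries RAD21 tagged with mAC, in both groups. All cells received 0.1% DMSO for 6 h, after which 2 libraries were made from cells given 1000 unit/ml IFN-β for 1 h and 2 from cells not treated further, with 1 input library as background. The labels place the control libraries at 0 min and the IFN-β libraries at 60 min, so IFN-β and 1 h of culture cannot be told apart.

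For each peak and group, the table gives a log2 mean of normalized reads over the libraries, called signal here, and no value per library. A difference is the IFN-β signal minus the control signal on the log2 scale. There is thus no SD between replicates and no test. Each difference carries instead an approximate 95% Clopper-Pearson interval that treats the normalized reads of both libraries as reads and so covers counting error only. Over the whole table the median difference was -0.69, with the 5th to 95th percentile from -1.3 to 0.06, so a typical peak was lower in the IFN-β group. The summed signal was 540427 normalized reads with IFN-β and 876825 in control. Part of every value below is shared with this offset, whose origin was not tested. Of 14 markers of colon epithelium, 10 had a peak within 10 kb of a start site, among them EPCAM, CDH1 and CDX2, while CDX1, HNF4A, LGR5 and VIL1 had none. Of 13 markers of other cell types, 6 had a peak, and PTPRC, CD3E, SPI1, COL1A2, COL3A1, ALB and DES had none.

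The p53 sites found in these peaks are shown first, because the members are known as p53 targets. On either strand, a p53 site was taken as a pair of decamers with 0 or 1 base between them, both cores intact, and at most 3 mismatches in the 12 flanking positions. Such a site lay within 500 bp of the center in 10 of the 27 peaks (37.0%), against 3.24% of all peaks in the table. A match describes letters in the reference and is not evidence of binding, and elements with an imperfect core are missed. For each of the 7 genes with a site in a peak, 1 site is printed from the forward strand of GRCh38, and a second for CDKN1A, with the cores in capitals.
CDKN1A, chr6:36676449-36676468, 2 mismatches: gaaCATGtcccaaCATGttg
CDKN1A, chr6:36667258-36667277, 1 mismatch: agaCAAGcccgggCAAGgcc
FAS, chr10:88991309-88991328, 2 mismatches: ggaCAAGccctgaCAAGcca
MDM2, chr12:68800252-68800271, 3 mismatches: taaCATGatgaaaCATGtct
BBC3, chr19:47231320-47231339, 3 mismatches: ggaCAAGtcaggaCTTGcag
GDF15, chr19:18386186-18386205, 3 mismatches: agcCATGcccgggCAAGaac
SESN1, chr6:109009018-109009037, 3 mismatches: tgaCTTGtggagaCTTGtcc
TP53I3, chr2:24085165-24085184, 3 mismatches: gagCATGggtgggCAAGctg

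The first CDKN1A site straddles the annotated 5′ end of the gene and lies at -2256 bp from the start of its canonical transcript. It is shown with the 50 upstream bases from the forward strand, the site in capitals, because it lies inside an acetylated peak.
CDKN1A, chr6:36676399-36676468: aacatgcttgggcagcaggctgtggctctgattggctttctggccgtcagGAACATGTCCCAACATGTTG

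The only member with a site free of mismatches was ZMAT3, and it lay outside a peak, in an intron, with its middle 52 bp beyond the edge of the nearest peak. It is printed on the minus strand, on which the gene is read, with the site in capitals.
ZMAT3, chr3:179070158-179070257: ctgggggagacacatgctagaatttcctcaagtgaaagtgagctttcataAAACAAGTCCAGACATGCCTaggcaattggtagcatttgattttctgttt

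Within 10 kb of the start sites of the 10 genes there were 45 p53 sites by the same definition, 10 inside a peak and 35 outside, and every gene had at least 1. This loose definition is common: within 10 kb of the canonical start, 64.8% of 20033 protein-coding genes had such a site and 0.524% had one without mismatches. Counted in that way, 9 of the 10 members had a site, all but SESN1, and 1, ZMAT3, had one without mismatches. The RRM2B gene had a site with 1 mismatch in an intron 1797 bp from its peak.

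All 27 peaks had less signal in the IFN-β group than in control. The differences ran from -1.49 to -0.07 with a median of -0.65, beside -0.69 for the whole table, so the median of the p53 targets lay 0.04 above that of the table. No peak lay above 0, against 5.93% of all peaks, and none reached +1, against 0.378%. A difference of -1 or less was seen in 3 peaks (11.1%), against 18.1% of all peaks. These 3 peaks lay near MDM2, BBC3 and TP53I3. At -0.5 or less there were 18 of 27 peaks, against 70.1% of all peaks, and at -1.5 or less none, against 2.62%. With 15 of 27 peaks above the median of the table (55.6%), against 49.1% of all peaks, the members were spread on both sides of it. The counting interval held the median of the table for 26 of the 27 peaks. The exception was a peak upstream of GDF15, whose interval lay just above it, with a lower limit of -0.67 against -0.69. The interval lay wholly below 0 for 15 peaks and held 0 for 12. The shares of all peaks with such intervals were not computed, so these interval counts do not set the p53 targets apart.

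**Figure D1:**
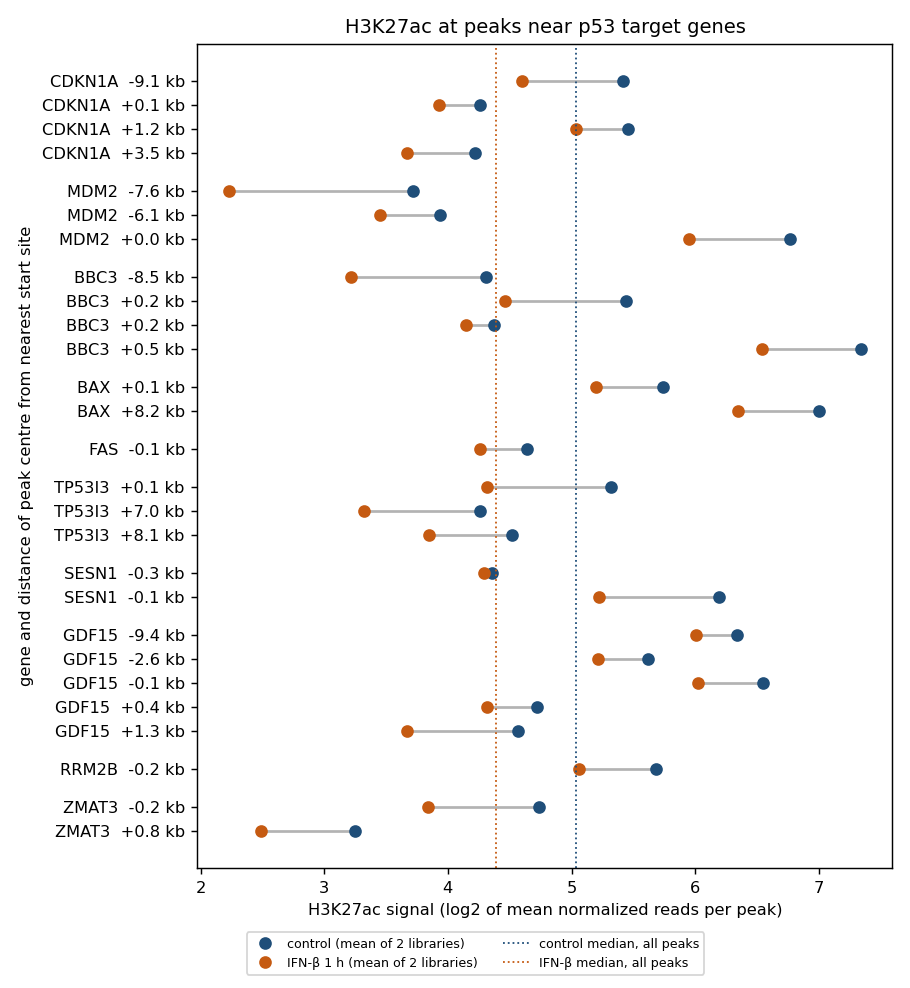
Signal of the 27 H3K27ac peaks near the 10 p53 target genes, with each peak's control and IFN-β group mean as log2 normalized reads. Control values run from 3.25 to 7.34 and IFN-β values from 2.23 to 6.54, and every peak is lower with IFN-β. Dotted lines are the medians of all peaks, and each point is the mean of 2 libraries and no spread between libraries is available.

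CDKN1A encodes p21, the inhibitor of cyclin-dependent kinases that carries out cell cycle arrest by p53 (ENSG00000124762.14, chr6:36676460-36687337, + strand). It had 4 peaks. The peak over the gene's 5′ end (chr6:36676084-36677084), which holds the site printed with its upstream bases, had a signal of 4.26 in control and 3.93 with IFN-β, a difference of -0.33 (interval -1.08 to 0.39). The largest difference was at the peak 9080 bp upstream (chr6:36666880-36667880), which holds the site with 1 mismatch, with 5.42 in control and 4.60 with IFN-β, or -0.82 (interval -1.35 to -0.29). These intervals overlap. The intronic peaks at chr6:36679457-36680457 and chr6:36681815-36682815 differed by -0.42 and -0.55, and the second also holds a p53 site. Summed over the 4 peaks, CDKN1A stood at 68.3% of control, a difference of -0.55 (interval -0.84 to -0.26).

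MDM2 encodes the ubiquitin ligase that holds p53 in check (ENSG00000135679.27, chr12:68808177-68845544, + strand). Its promoter peak (chr12:68807922-68808922), centered 39 bp from a start site, had a signal of 6.77 in control and 5.95 with IFN-β, a difference of -0.82 (interval -1.14 to -0.49). The lowest difference of all 27 peaks was at a weak peak 7584 bp upstream (chr12:68800093-68801093), with 3.72 in control and 2.23 with IFN-β. It was -1.49 (interval -2.81 to -0.39), at percentile 2.67 of all peaks, with ties at their mean rank. This peak held 13.2 normalized reads in control and 4.69 with IFN-β, so few reads support it, and it holds the MDM2 site printed above. The neighboring peak at chr12:68801538-68802538 differed by -0.49.

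Of the genes of apoptosis, BBC3 had the widest range of differences among its peaks. BBC3 encodes PUMA, a BH3-only protein that sets off mitochondrial apoptosis (ENSG00000105327.18, chr19:47220822-47232766, - strand). Its peak at chr19:47226232-47227232, near a start site and microRNA genes, was the strongest of all 27, with 7.34 in control and 6.54 with IFN-β, a difference of -0.80 (interval -1.07 to -0.54). The peak over a second start site (chr19:47230529-47231529), which holds the BBC3 p53 site, differed by -0.98. The peak over the gene's outermost start site (chr19:47232050-47233050) differed by -0.22 (interval -0.88 to 0.49), at 4.37 in control and 4.15 with IFN-β, which puts it at percentile 88.0 of all peaks. The 1777 bp peak 8518 bp upstream (chr19:47240396-47242173) differed by -1.09. Summed over 4 peaks, BBC3 differed by -0.79.

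The BBC3 peak with the small difference is also the member peak richest in ISRE cores, taken as GAAA, 2 bases, GAAA on either strand. The interval of this peak holds the table median, and whether the cores bear on its difference was not tested. The peak held 4 matches, some overlapping, a number reached by 14 of all peaks (0.0697%). A core was found in 4 of the 27 member peaks (14.8%), against 11.6% of all peaks, and the other 3 were near FAS, GDF15 and MDM2 with differences of -0.38, -0.53 and -1.49. Over the whole table the median difference of peaks with a core was -0.58, beside -0.69 for all peaks. GC content, which moves with the difference, was not matched in that comparison. One stretch of the BBC3 peak, read on the minus strand, is printed with both cores in capitals.
BBC3, chr19:47232947-47232973: GAAAGCGAAAgaggaggGAAAGTGAAA

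BAX, a pore-forming protein of the mitochondrial outer membrane (ENSG00000087088.21, chr19:48954815-48961798, + strand), had a promoter peak (chr19:48954565-48955565) at 5.74 in control and 5.20 with IFN-β, a difference of -0.54. Its second peak (chr19:48963567-48964567), at 7.0 and 6.35 or -0.65, lay 8214 bp from a BAX start site and 1242 bp from one of FTL, the ferritin light chain gene. FAS, the death receptor (ENSG00000026103.25, chr10:88953813-89029605, + strand), had 1 peak (chr10:88990650-88991650), with 4.64 in control and 4.26 with IFN-β. Its difference of -0.38 (interval -1.04 to 0.24) was the nearest to 0 of the 10 genes, and the interval holds both 0 and the table median. A start site of ACTA2 lies within 1 kb of this peak.

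GDF15 encodes a secreted growth and stress factor (ENSG00000130513.7, chr19:18374731-18389176, + strand) and had 5 peaks, the most of any member. The peak over the gene's 5′ end (chr19:18374106-18375106) had a signal of 6.55 in control and 6.02 with IFN-β, or -0.53. The peaks at chr19:18379021-18380021 and chr19:18386016-18387016 differed by -0.41 and -0.40, and the second holds the GDF15 site printed above. That site lies 37 bp from the start of the canonical transcript, so the peak over the gene's 5′ end lies far upstream of that start. The last, a 1602 bp peak (chr19:18387384-18388986), differed by -0.90. The peak 9357 bp upstream of the gene's 5′ end (chr19:18364874-18365874) had 6.34 in control and 6.01 with IFN-β. Its difference was -0.33 (interval -0.67 to 0.01), the only interval that lay above the table median. That peak also holds a p53 site, with 3 mismatches, at -21162 bp from the canonical start. PGPEP1 is the nearest coding gene of the peak, at 7868 bp. Summed, GDF15 stood at 72.6% of control, or -0.46 (interval -0.65 to -0.27). The peak at the canonical start held only 26.4 of the 274 normalized reads summed in control.

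SESN1 encodes sestrin 1, which restrains mTORC1 signaling under stress (ENSG00000080546.14, chr6:108984309-109094846, - strand) and had 2 peaks. The peak at an internal start site (chr6:109008764-109009764), which holds the SESN1 p53 site, had 4.36 in control and 4.29 with IFN-β. Its difference of -0.07 (interval -0.74 to 0.60) was at percentile 92.5 of all peaks and the nearest to 0 of the 27. The peak at the gene's outer start (chr6:109094473-109095473), where CEP57L1 also starts, had 6.19 and 5.22, a difference of -0.97 (interval -1.38 to -0.55). The intervals of these peaks overlap.

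RRM2B encodes the p53-inducible subunit of ribonucleotide reductase, which supplies nucleotides for DNA repair (ENSG00000048392.13, chr8:102204502-102238961, - strand). Its single peak (chr8:102238646-102239646) had 5.68 in control and 5.06 with IFN-β, a difference of -0.62 (interval -1.09 to -0.16). TP53I3, a quinone oxidoreductase tied to oxidative stress (ENSG00000115129.14, chr2:24077433-24085861, - strand), had its promoter peak (chr2:24084199-24085199), which holds a p53 site, at 5.32 in control and 4.32 with IFN-β, a difference of -1.0 (interval -1.59 to -0.44). Its other peaks at chr2:24075692-24076692 and chr2:24076778-24077778 differed by -0.67 and -0.94 and lie at 134 bp from a start site of SF3B6 and 350 bp from one of FAM228B. ZMAT3, a zinc finger protein that binds RNA (ENSG00000172667.11, chr3:178960121-179072215, - strand), had a promoter peak (chr3:179071515-179072515) at 4.74 and 3.84, or -0.90. Its intronic peak (chr3:179070249-179071249), beside the perfect p53 site, was the weakest of the 27 in control, at 3.25, with 2.49 after IFN-β, or -0.76 (interval -2.01 to 0.36).

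**Figure D2:**
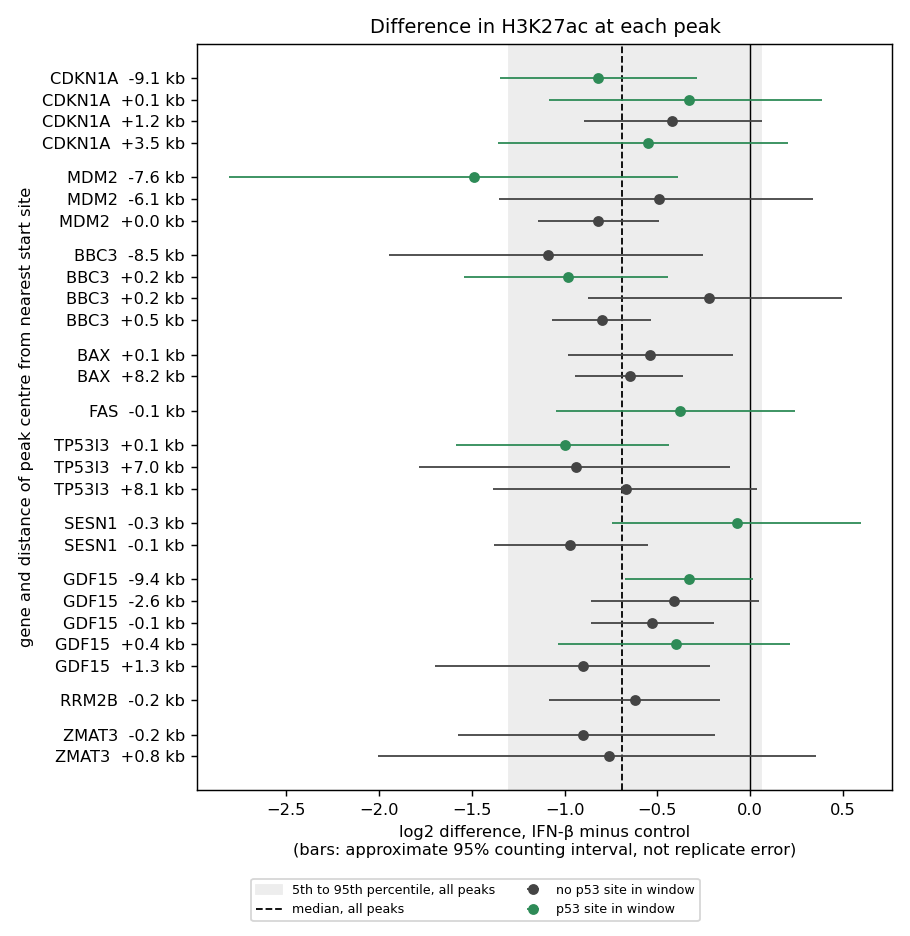
Difference between IFN-β and control (log2) for each of the 27 peaks with its approximate 95% counting interval, green where the window holds a p53 site. The dashed line is the median of all peaks, -0.69, and the shaded band their 5th to 95th percentile, -1.3 to 0.06. The 27 values run from -1.49 to -0.07.

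Signals were compared between genes per kb of peak. In control, BAX stood at 90.7 normalized reads per kb, but its peak nearest to FTL held 128 and its own promoter peak 53.4, so without the former it does not stand apart from the next genes. These were BBC3 at 51.5, RRM2B at 51.3, GDF15 at 48.9, SESN1 at 46.8 and MDM2 at 45.9. Below them stood CDKN1A at 31.2, TP53I3 at 27.3, FAS at 24.9 and ZMAT3 at 18.1. The promoter peak of TP53I3 alone held 39.9, above the value for CDKN1A, and its other peaks lie near starts of SF3B6 and FAM228B. With no value per library, neighbors as near as BBC3 to MDM2 cannot be put in order. By summed signal, the gene differences ran from -0.89 for TP53I3 (interval -1.27 to -0.50), through -0.86 for ZMAT3, -0.83 for MDM2, -0.79 for BBC3, -0.72 for SESN1, -0.62 for RRM2B and BAX, -0.55 for CDKN1A and -0.46 for GDF15, to -0.38 for FAS. Of the 10 genes, 5 lay above the table median and 5 below, and the gene median was -0.67.

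The 10 peaks with a p53 site had a median difference of -0.475, against -0.67 for the 17 without, but the values ran from -1.49 at MDM2 to -0.07 at SESN1. Over all peaks the medians with and without a site were -0.66 and -0.69. By distance, the median was -0.62 for the 15 peaks within 1 kb of a start site and -0.66 for the 12 beyond. GC content and signal move with the difference across the table. With all peaks cut into 10 equal parts, the median was -0.48 in the part poorest in GC and -0.82 in the richest. By control signal, the median was -0.42 in the weakest part and -0.82 in the strongest. The SD over peaks was 0.794 in the part with the weakest control signal and 0.204 in the strongest. That weakest part includes 460 peaks at the lowest signal of both groups, -0.17 in control and -0.59 with IFN-β. These peaks share a single difference and enter the median of that part, and no member peak was among them. The 27 peaks ran from 35.9% to 77.1% GC. Taken against peaks in the same part by GC content, their median was 0.02 higher, and by control signal 0.09 higher.

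**Figure D3:**
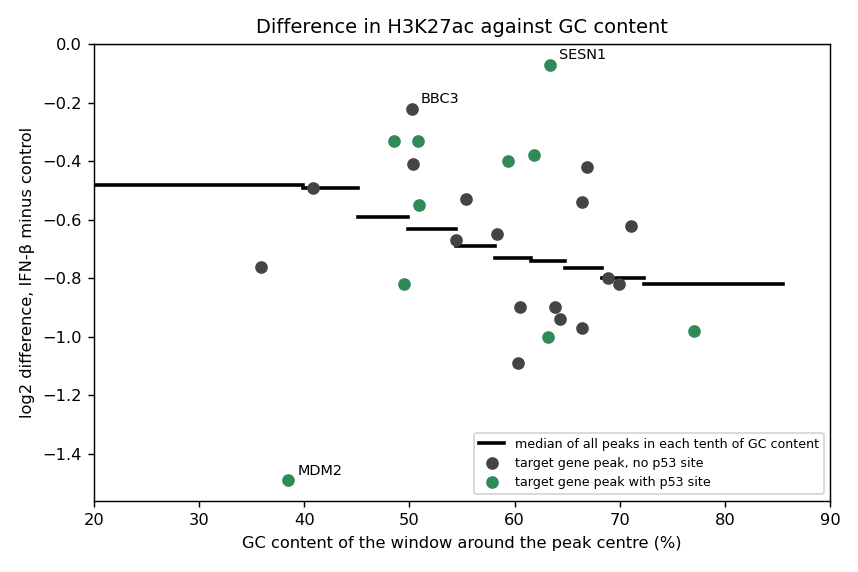
Difference between IFN-β and control (log2) against GC content (%), for the 27 peaks as points, green where the window holds a p53 site. Black bars are the medians of all peaks in 10 equal parts by GC content, from -0.48 to -0.82, and the member peaks lie on both sides of them.

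Other genes of the p53 pathway were taken from lists. Of 48 further p53 targets, 44 had a peak, and their 68 peaks had a median of -0.68. Of these peaks, 9 (13.2%, against 18.1% of all peaks) were at -1 or less. None was at +1 or more, against 0.378% of all peaks, and 2 (2.94%, against 5.93%) lay above 0. By gene, the highest differences among genes with at least median signal were those of ABHD4 (-0.37), DUSP14 (-0.39) and PLK3, a stress kinase (-0.41). The lowest were STEAP3 (-1.36), EI24 (-1.04) and APAF1, the apoptosome scaffold (-1.01). A p53 site was found in 7 of the 68 peaks (10.3%), against 3.24% of all peaks. The 23 regulators of p53 had 34 peaks with a median of -0.78, of which 6 (17.6%, against 18.1% of all peaks) were at -1 or less and 2 (5.88%, against 5.93%) above 0. The p53-binding repressor MDM4 stood at -0.66 and the phosphatase PPM1D at -0.96, and RPL11 (-1.31), USP7 (-1.22) and EP300 (-0.98) were the lowest, while ATM and COP1 were at -0.59 and -0.48. PML, a nuclear body protein that acts on p53 and is itself interferon-inducible, was the only regulator above 0, at 0.71 (interval 0.22 to 1.18), with 1 peak at 1.15 and the other at -1.67.

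Interferon-response genes, the known targets of the stimulus, lay mostly above 0 in the same libraries. The 24 of 30 listed genes with a peak had 32 peaks with a median of 0.40. Of these peaks, 22 (68.8%, against 5.93% of all peaks) lay above 0. The highest genes were IFI6 at 1.94, TRIM21 at 1.76 and IFIT1, an RNA-binding antiviral protein, at 1.59. IFI6 and TRIM21 lay below the median signal, with 10.3 and 7.78 normalized reads in control. Of the 32 peaks, 7 reached +1 or more, against 0.378% of all peaks.

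**Figure D4:**
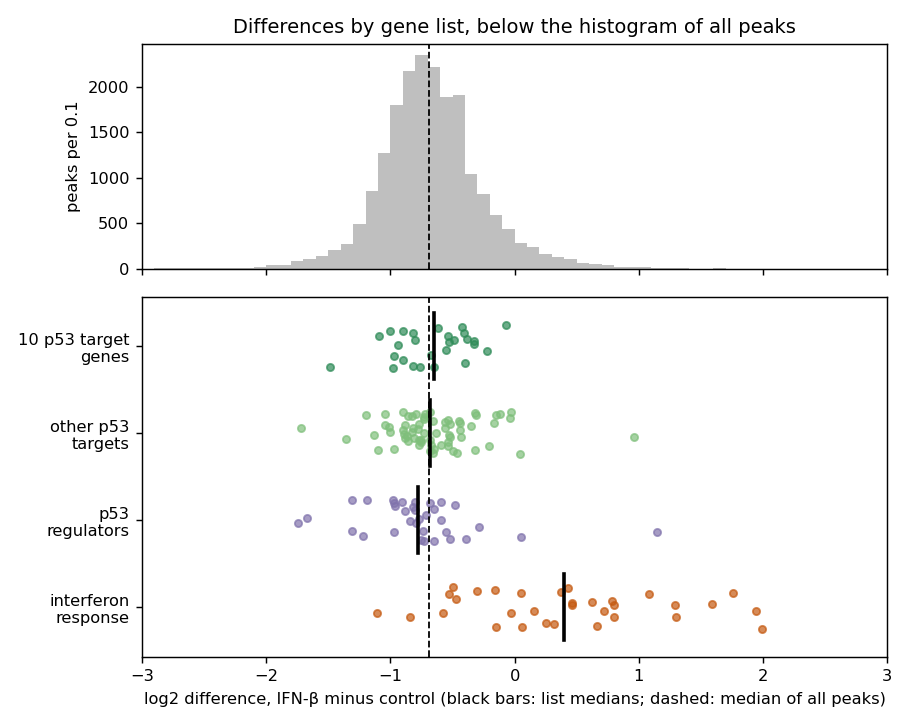
Differences between IFN-β and control (log2) for the peaks of the 10 p53 targets, the further p53 targets, the p53 regulators and the interferon-response genes, below a histogram of all peaks, of which 19 lie outside the plotted range. Black bars are the list medians, -0.65, -0.68, -0.78 and 0.40.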

How the data were processed

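H3K27ac ChIP-seq libraries were trimmed with fastp 0.19.3 after bcl2fastq 2.17 (submitters' processing notes), aligned to GRCh38 with bowtie2, and peaks were called with MACS2 against the input; the authors merged and counted them with DiffBind and DESeq2. The deposited table of 20087 peaks holds, as the authors deposited it, the log2 of mean normalized reads over all H3K27ac libraries and over each group. Columns of the authors' own comparison (log2 fold change, p-value and FDR) were not used. The table gives no value per library, so no test, SD or leave-one-out was possible. The total depth of each library was not used here.

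Peak coordinates are given as in the deposited table, and site coordinates count from 1 in GRCh38. Peaks were assigned to GENCODE release 44 start sites within 10 kb. The difference is the IFN-β minus the control log2 value. Intervals took reads as the normalized reads of 2 libraries per group, and cover counting error only. Sites were searched in 1000 bp windows of the reference, on both strands. Named genes are all members with every peak, MDM4, PPM1D, PML, the 3 highest and 3 lowest genes of each list among those with a mean log2 signal at or above the table median of 4.75, and the 3 highest interferon genes. An item that the rule also names is not reported here. The members and lists were chosen with earlier results of these data known. The interval code was tested on simulated data. Python 3.11.15, numpy 2.4.6, pandas 2.3.3, scipy 1.17.1, pysam 0.24.0, samtools 1.23.1 and matplotlib 3.10.9 were used.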

Additional observations from a re-analysis of the deposited data

How the results depend on the processing

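No paired analysis was possible because the table holds group means and no column per library, and leaving out a library could not be done for the same reason. Signal limits the precision: the spread of differences is widest for the weakest peaks, and a difference at a weak peak rests on few reads. The median difference of the 27 peaks, -0.65, was -0.55 with start sites within 5 kb and -0.52 with 5 normalized reads added before the log, and 0.04, 0.02 and 0.09 after centring on the table and on peaks of like GC content and of like control signal (10 equal parts each). Centring subtracts the offset by construction. The further p53 targets went from -0.68 to -0.74 within 1 kb, 0.01, 0.0475 and 0.035 after the same centrings and -0.59 with 5 reads added. The regulators went from -0.78 to -0.09, -0.0275 and -0.005 after centring and -0.70 with 5 reads added. The count at -1 or less, 3 of 27, was 1 of 19 within 5 kb (18.8% of the peaks that near any start site), 1 of 15 within 1 kb (19%), 1 of 13 with the filter on mean signal (14.6% of the peaks that pass it), 0, 1 and 0 of 27 after the centrings (1.44%, 1.69% and 2% of all peaks), 0 with 5 reads added (5.61%), 18 at a threshold of -0.5 (70.1% of all peaks) and 0 at -1.5 (2.62%). The count above the table median, 15 of 27, was 8 of 15 within 1 kb and 7 of 13 with the filter. The share of all peaks above the table median was not computed within those sets. The gene median, -0.67, was 0.0206, 0.0742 and 0.0541 after centring. With only the gene's 5′ end as start site it was -0.79 over 9 genes, since FAS had no peak there, and SESN1 went from -0.72 to -0.97. Peaks with a p53 site, 10, were 3 with at most 2 mismatches (11.1%, against 0.851% of all peaks) and 4 within 250 bp (14.8%, against 1.56%). The contrast with all peaks, 37.0% against 3.24%, was smaller with at most 4 mismatches (37.0% against 7.19%) and with 0 to 13 bases between the decamers (12 peaks, 44.4% against 14.6%). In all, 39 of 69 values stayed within the limits set for them. Limits came from the width of a counting interval for medians and from a fixed ratio for counts. Counts were compared without regard to the number of peaks in each set, and centring moves the medians by construction. The tally is therefore not a measure of robustness. Of the 109 single-gene values, 80 stayed within the counting interval of the gene, and all 79 without centring did so and stayed below 0. Staying below 0 was nearly fixed beforehand, since all 27 peaks lie below 0 and most alternatives reuse them. FAS and RRM2B, with 1 peak each, kept the same value at every distance. Without the 4 peaks nearer to another coding gene, an alternative chosen after seeing the data, the median of the remaining 23 peaks was -0.62, with 3 at -1 or less and 12 above the table median.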

Other observations

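THBS1, encoding the matrix protein thrombospondin 1, was the only one of the 44 further p53 targets with a summed difference above 0, at 0.96 (interval 0.13 to 1.84), from 1 peak of 9.58 normalized reads in control and 18.6 with IFN-β. It lies below the median signal and was chosen after its value was seen.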
